A study of Mus musculus with 18 samples.

Results

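The enzymes and helpers that modify and fold procollagen in the endoplasmic reticulum were followed in RNA from MPC3 cells, a mouse prostate cancer line, in which the ubiquitin ligase gene Rnf185 had been knocked down. The genes were taken by symbol and number 10 of the 47643 genes in the deposited table: the prolyl 4-hydroxylase subunits P4ha1, P4ha2 and P4ha3, the prolyl 3-hydroxylases P3h1 and P3h2 with the partner protein Crtap, the lysyl hydroxylases Plod1, Plod2 and Plod3, and the collagen chaperone Serpinh1. The rule is a list of names with no threshold on a value, although the list was drawn up with earlier results of these data known. Each symbol matched a single Ensembl gene, and all 10 genes passed the filter on low counts that left 14309 genes for testing. Polyadenylated RNA was sequenced in 18 libraries, of which 6 carried the control vector plko, 6 the hairpin shRNF185.1 and 6 the hairpin shRNF185.3, both directed at Rnf185. Short hairpin RNAs lower the messenger RNA they match, so each group is a whole cell population of the same line with a vector, and no library came from parental cells without one. Every group had 2 libraries in each of 3 labelled batches, with replicates 1 and 2 in batch 1, 3 and 4 in batch 2, and 5 and 6 in batch 3. The labels do not say whether the libraries of a group came from separate cultures, so p-values measure the spread between these libraries, which may be technical. The series is titled for the control of the collagen gene COL3A1 by RNF185 in migration and metastasis, and the collagen-modifying genes bear on how the procollagen made by these cells could be handled.

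Library totals ran from 22027395 to 43379662 counts, and 3 counts, the limit that a count of 0 allows, corresponded to 0.0692 to 0.136 CPM (counts scaled to a common library size) depending on the library, a limit that covers counting error only. The targeted gene, Rnf185, stood at 35.9 ± 1.96 CPM in control, 5.81 ± 0.582 CPM under shRNF185.1 and 5.80 ± 0.546 CPM under shRNF185.3 (SD, n = 6 each), and all 12 hairpin libraries lay below the lowest control library. Markers of both epithelial and mesenchymal cells were present in control, with Krt8 at 1197 CPM, Vim at 3201 CPM and Pdgfrb at 157 CPM, whereas Epcam, Krt5, Thy1, Cdh5, Ptprc, Adgre1 and Cd3e each had at most 43 counts over all 18 libraries. The epithelial markers fell in all 4 of 4 tested with shRNF185.1 and in 3 of 4 under shRNF185.3, beside 14.3% and 13.1% of all genes called lower, and the log2 fold change of Cdh1 was -1.91 and -2.13. Their summed level was 1460 to 1765 CPM in control, 904 to 1175 CPM under shRNF185.1 and 973 to 1041 CPM under shRNF185.3. The mesenchymal markers were mixed: of 4 tested, 1 rose and 1 fell with shRNF185.1, and 2 rose and 0 fell with shRNF185.3. Dcn stood at 24.9 CPM in control, 5.76 CPM under shRNF185.1 and 17.6 CPM under shRNF185.3, and Lum at 0.253 CPM in control. Whether these marker changes have a part in the collagen enzyme results was not tested, and in bulk RNA fewer cells of a type and less RNA per cell cannot be told apart.

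Collagen chains are modified while they still lie unfolded in the endoplasmic reticulum. Prolyl 4-hydroxylases add the hydroxyl groups that keep the triple helix stable at body temperature, lysyl hydroxylases make the hydroxylysines that later carry sugars and cross-links, and prolyl 3-hydroxylases modify a few selected prolines. All of these hydroxylases need oxygen, iron and 2-oxoglutarate, and P4ha1, P4ha2 and Plod2 are well-known transcriptional targets of the hypoxia-inducible factors, whereas Serpinh1 (Hsp47), which binds the folded procollagen helix until it leaves for the Golgi, is known as a heat shock protein.

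In control cells the order of levels per exon length ran from P4ha1 to Serpinh1. On the scale of CPM per kilobase of exon, the control means (± SD, n = 6) were 50.7 ± 9.44 for P4ha1, 43.7 ± 4.30 for Crtap, 29.5 ± 2.93 for Plod3, 20.4 ± 5.94 for Plod2 and 19.4 ± 7.47 for P4ha2. The lower part of the order held P3h1 at 8.86 ± 0.89, P4ha3 at 8.35 ± 0.52, Plod1 at 8.15 ± 1.13, P3h2 at 7.02 ± 0.62 and Serpinh1 at 2.34 ± 0.88 CPM per kilobase. The ranges of neighbours in this order over the libraries overlapped except for Crtap and Plod3, and P3h2 and Serpinh1. The range of P4ha1 thus overlapped that of Crtap, and those of P3h1, P4ha3, Plod1 and P3h2 overlapped too. Overlap of ranges does not say how 2 genes compare within the same library, which was not tested. The chaperone was thus the lowest of the 10 genes, while the chain it is known to bind, Col3a1, stood at 55.6 and the shared beta subunit of prolyl 4-hydroxylase, P4hb, at 425 CPM per kilobase in the same control libraries. With the hairpins Serpinh1 was still last, at 7.26 ± 1.53 CPM per kilobase with shRNF185.1, where its range overlapped that of P3h2, and at 4.09 ± 0.94 under shRNF185.3, where it did not.

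With shRNF185.1, 6 of the 10 genes rose and 0 fell: P4ha3, P3h1, P3h2, Plod1, Plod3 and Serpinh1. Calls rest on edgeR's quasi-likelihood test with the adjusted p under 0.05 over all genes tested, by which 28.9% of all genes were called, 14.6% higher and 14.3% lower. With shRNF185.3, 7 of 10 rose and 0 fell: P4ha1, P4ha3, P3h1, Plod1, Plod3, Serpinh1 and Crtap, against 27.3% of all genes called, 14.2% higher and 13.1% lower. Without any overlap with control, 5 genes lay higher with shRNF185.1 (P4ha3, P3h1, P3h2, Plod1 and Serpinh1) and 3 under shRNF185.3 (P4ha3, P3h1 and Plod1), as did 7.02% and 7.6% of all genes. The median log2 fold change of the 10 genes was 0.36 under shRNF185.1 and 0.42 under shRNF185.3, beside medians of -0.017 and -0.019 over all 14309 genes. The genes called higher with both hairpins were P4ha3, P3h1, Plod1, Plod3 and Serpinh1, 5 of 10 against 8.99% of all genes, and those called with neither were P4ha2 and Plod2, 2 of 10 against 60.4%. Both comparisons used the same 6 control libraries, so the 2 sets of calls are not independent of each other. The split of all calls depended on the correction for GC content and exon length: 50.6% and 51.8% of called genes were higher without it and 43.8% and 36.9% with it, whereas all 6 of the genes called with shRNF185.1 and 6 of the 7 called with shRNF185.3 (not Crtap) passed with it too.

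**Figure D1:**
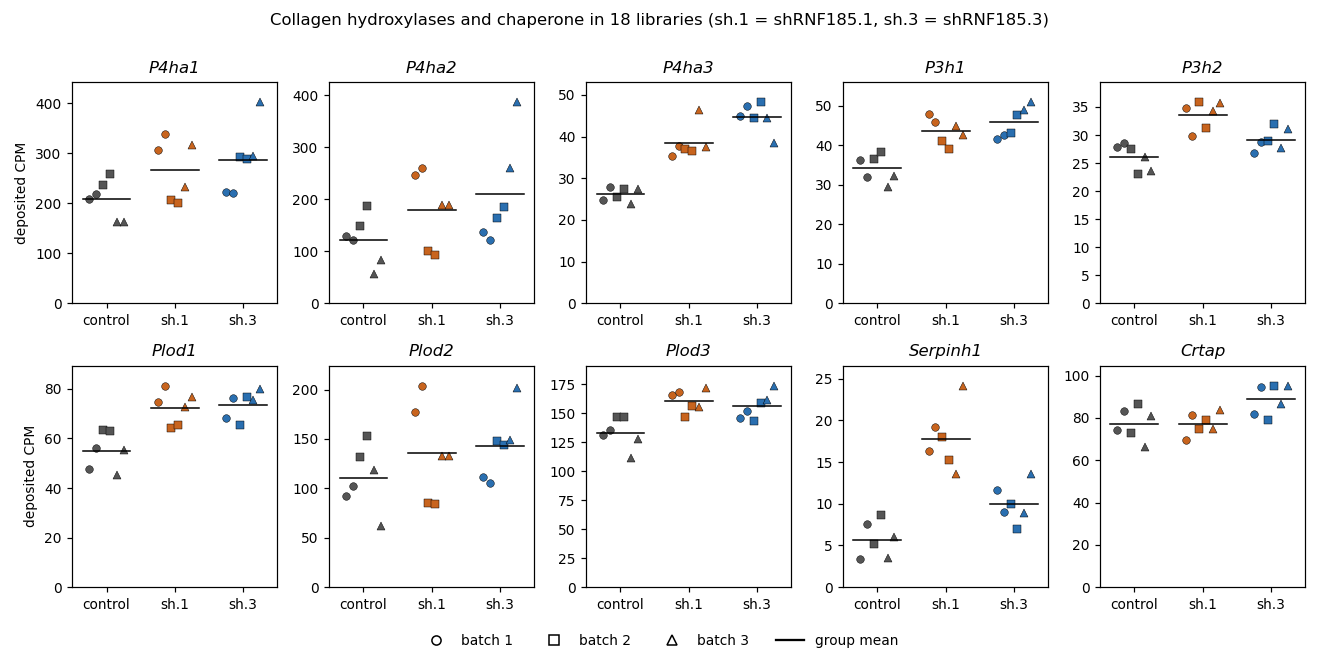
Deposited CPM of each gene (y axis, from 0, one panel per gene) in the 6 control, 6 shRNF185.1 and 6 shRNF185.3 libraries. Each point is 1 library, its shape gives the batch and the horizontal line is the group mean. P4ha3, P3h1 and Plod1 show no overlap between control and either hairpin, whereas P4ha1, P4ha2 and Plod2 spread widely within each group, in part by batch. The 2 control libraries of batch 3 also differed for Plod2, at 119 and 61.5 CPM.

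Among the catalytic subunits of prolyl 4-hydroxylase, P4ha3, the third and least abundant alpha subunit here, rose with both hairpins in every library, and P4ha1, the main alpha subunit, passed the test with shRNF185.3. P4ha2 passed with neither, with estimates as large as those of P4ha3 (0.57 and 0.80 against 0.55 and 0.77 on the log2 scale) and a larger standard error (0.32), and differences between the subunits were not tested. P4ha3 (ENSMUSG00000051048, positions from GENCODE M21 on GRCm38, chr7:100285520-100319699, plus strand, protein-coding) had a lowest, median and highest level of 23.9, 26.5 and 27.9 CPM in control, 35.3, 37.3 and 46.3 CPM under shRNF185.1, and 38.4, 44.7 and 48.3 CPM under shRNF185.3. No hairpin library overlapped the control range. P4ha3 changed by 0.55 on the log2 scale (SE 0.07, edgeR adjusted p = 6.38e-06) under shRNF185.1, 1.47-fold, and 0.77 (SE 0.07, edgeR adjusted p = 1.32e-07) under shRNF185.3, 1.71-fold, and it was called under all 13 alternative settings and with each of the 18 libraries left out in turn. In batches 1, 2 and 3 the log2 value exceeded control by 0.47, 0.47 and 0.70 under shRNF185.1 and 0.81, 0.81 and 0.69 under shRNF185.3. The rise was thus present in every batch with both hairpins.

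P4ha1 (ENSMUSG00000019916, chr10:59323296-59373304, plus strand) had a lowest, median and highest level of 163, 214 and 258 CPM in control, 201, 270.2 and 339.5 CPM under shRNF185.1, and 220.2, 291 and 403 CPM under shRNF185.3. The groups overlapped, with 3 of 6 shRNF185.1 and 4 of 6 shRNF185.3 libraries above the highest control, and the 2 control libraries of batch 3 were the lowest of all 18. On the log2 scale the fold change of P4ha1 was 0.36 (SE 0.16, edgeR adjusted p = 0.112) under shRNF185.1 and 0.47 (SE 0.16, edgeR adjusted p = 0.0419) under shRNF185.3. For P4ha1 the difference between the hairpins was not called (0.11, 95% interval -0.21 to 0.43, edgeR adjusted p = 0.775). Without batch 2, where P4ha1 lay below control by 0.29, the shRNF185.1 value was called too (0.67, edgeR adjusted p = 0.0136). That was the only 1 of 13 alternatives to call it, and the lowest shRNF185.1 estimate among the 13 was 0.19. The shRNF185.3 call was lost in 6 of 13 alternatives, at edgeR adjusted p from 0.0623 to 0.590 and with a fold change of 0.15 without batch 3, and when any of control replicates 1, 2, 5 and 6 or shRNF185.3 replicates 3 to 6 was left out, at 0.34 to 0.48 (adjusted p 0.0573 to 0.121). Blocking on the replicate number gave an edgeR adjusted p of 0.0857.

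P4ha2 (ENSMUSG00000018906, chr11:54100095-54131665, plus strand), the alpha subunit of a second tetramer with P4hb, had the widest spread of the 10 genes. Its lowest, median and highest levels were 56.1, 125 and 187 CPM in control, 92.8, 189 and 260.5 CPM under shRNF185.1, and 122, 175 and 387 CPM under shRNF185.3. High and low libraries were those of particular batches: batch 3 was lowest in control and highest with shRNF185.3, and batch 2 was highest in control and lowest with shRNF185.1. P4ha2 changed by 0.57 on the log2 scale (95% interval, taken as 1.96 SE on each side, -0.06 to 1.20, edgeR adjusted p = 0.199) under shRNF185.1 and 0.80 (0.16 to 1.43, edgeR adjusted p = 0.0749) under shRNF185.3. It passed without batch 2, at 1.19 and 1.22 (edgeR adjusted p 0.0161 and 0.0185), and with shRNF185.3 also when control replicate 4 or shRNF185.3 replicate 2 was left out (adjusted p 0.0384 and 0.0499), whereas without batch 3 the shRNF185.3 value was 0.06. Leaving out batch 2 was the only 1 of 13 alternatives to call P4ha2 with either hairpin, and the lowest shRNF185.1 estimate among the 13 was 0.26.

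The 250 bases before the RefSeq start of the 3 alpha subunit genes and of Serpinh1 are shown because these genes, picked after their values were seen, differ in how they followed the batches and the 2 hairpins. Sequences are from RefSeq on GRCm38.p6, 5′ to 3′ on the gene's strand, and capitals mark ACGTG and GCGTG on either strand, the core letters of hypoxia response elements (CACGT and CACGC on the other strand).
P4ha1 chr10:59323046-59323295 plus strand: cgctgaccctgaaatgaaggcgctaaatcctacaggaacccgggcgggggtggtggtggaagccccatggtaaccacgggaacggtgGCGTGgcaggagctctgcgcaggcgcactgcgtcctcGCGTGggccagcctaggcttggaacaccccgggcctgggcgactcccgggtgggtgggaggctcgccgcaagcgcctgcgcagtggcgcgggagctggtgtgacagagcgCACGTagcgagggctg
P4ha2 chr11:54100674-54100923 plus strand: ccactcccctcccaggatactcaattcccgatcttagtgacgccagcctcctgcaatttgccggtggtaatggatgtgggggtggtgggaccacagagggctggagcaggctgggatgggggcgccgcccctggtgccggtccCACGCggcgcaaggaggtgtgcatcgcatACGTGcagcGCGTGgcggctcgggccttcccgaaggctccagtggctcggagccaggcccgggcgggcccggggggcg
P4ha3 chr7:100285270-100285519 plus strand: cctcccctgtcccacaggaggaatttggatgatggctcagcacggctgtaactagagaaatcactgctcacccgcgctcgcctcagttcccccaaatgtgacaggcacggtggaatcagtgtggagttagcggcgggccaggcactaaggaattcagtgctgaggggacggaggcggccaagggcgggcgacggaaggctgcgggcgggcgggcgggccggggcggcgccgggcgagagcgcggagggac
Serpinh1 chr7:99353240-99353489 minus strand: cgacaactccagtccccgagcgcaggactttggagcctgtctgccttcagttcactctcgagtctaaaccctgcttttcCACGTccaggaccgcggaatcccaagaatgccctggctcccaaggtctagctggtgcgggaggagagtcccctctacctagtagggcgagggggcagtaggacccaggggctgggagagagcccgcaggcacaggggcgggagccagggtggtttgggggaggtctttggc
The P4ha1 window held ACGTG 1 time, 16 bases before the start, and GCGTG 2 times, at 163 and 126 bases. In P4ha2, ACGTG lay 78 bases before the start and GCGTG at 107 and 69 bases, with no overlap between the matches. The P4ha3 window held neither, and Serpinh1 held ACGTG at 171 bases and no GCGTG. Of 32851 mouse promoter windows of the same length, 16.6% held ACGTG and 28.2% held GCGTG, so either match alone is common. The P4ha2 window lies inside the GENCODE gene, which has a transcript that starts further upstream, and none of the 4 windows overlaps an annotated exon. Of the heat shock element letters searched on both strands, GAANNTTC (6.69% of all windows) was in none of the 4 windows and TTCNNGAA (7.17%) was in that of P4ha2 alone, 52 bases before the start. A match is a string of letters, not a site known to be bound, and its absence says nothing of sites elsewhere. RefSeq promoters were matched for 8 of the 10 genes, and Plod2 and P3h2 were not among them. In the windows of the other 4, which are not printed, Plod3 held ACGTG 1 time and GCGTG 3 times, Crtap GCGTG 3 times and Plod1 GCGTG 1 time, and P3h1 held GCGTG 2 times at 1 of its 2 starts and ACGTG 2 times at the other. Thus P4ha3 alone of the 8 held neither string, and matches were also present in Crtap and Plod3, whose spread between libraries was narrower than that of P4ha1 and P4ha2.

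The dependence of P4ha1 and P4ha2 on batch was also seen in Plod2, the lysyl hydroxylase of the telopeptides. Taking batches 1, 2 and 3 separately, hairpin minus control on the log2 scale was 0.59, -0.29 and 0.74 for P4ha1, 1.02, -0.79 and 1.47 for P4ha2, and 0.97, -0.75 and 0.63 for Plod2 under shRNF185.1. With shRNF185.3 the corresponding differences were 0.05, 0.23 and 1.08 for P4ha1, 0.05, 0.07 and 2.22 for P4ha2, and 0.16, 0.04 and 1.02 for Plod2. Thus all 3 genes were below control in batch 2 under shRNF185.1 and furthest above it in batch 3 under shRNF185.3. For Plod2 the control libraries of batch 3, replicates 5 and 6, stood apart at 119 and 61.5 CPM, so its batch 3 differences rest in part on 1 low control library. A term for an effect differing between batches, chosen after these values were seen, was called with shRNF185.1 for P4ha2 (edgeR adjusted p = 0.000557), Plod2 (0.00596), P4ha1 (0.00669) and Plod1 (0.0359), 4 of 10 genes against 14.3% of all genes. With shRNF185.3 it was called for P4ha2 (edgeR adjusted p = 0.000894) and P4ha1 (0.0147), 2 of 10 against 5.18%, while Plod2 was at 0.144. These counts had already been adjusted for batch by the authors, so the term describes what was left in the adjusted values.

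A list of 14 hypoxia-inducible genes outside the 10, among them Vegfa, Slc2a1, Bnip3, Ndrg1, Egln3 and Car9, was read in the same batches. Averaged over the list, hairpin minus control in batches 1, 2 and 3 was 0.82, -1.22 and 1.30 under shRNF185.1, positive for 14, 0 and 14 of the 14 genes. With shRNF185.3 the mean was -0.04, -0.60 and 1.20, positive for 4, 1 and 14 genes. The list mean and P4ha1, P4ha2 and Plod2 thus had the same sign in every batch with shRNF185.1 and in batch 3 with shRNF185.3, whereas in batches 1 and 2 with shRNF185.3 the list mean was below 0 and these genes were above it. The summed level of the list ranged from 3831 to 7018 CPM in control, 3643 to 6772 CPM under shRNF185.1 and 4468 to 7089 CPM under shRNF185.3. None of the 14 was called against control with either hairpin in edgeR, with 2 and 0 at an unadjusted p under 0.05, 0 and 0 called by DESeq2 and 1 and 0 by limma-voom, but without batch 2, 12 and 5 of 14 were called, beside 35.7% and 26.8% of all genes in that fit. P4ha2 lay on the same side of its group mean as the list in 17 of 18 libraries, P3h1 in 16, P4ha1, Plod2 and Plod3 in 14, and Plod1 in 13, whereas P3h2 did so in 11, Crtap and Serpinh1 in 8 and P4ha3 in 6. Over all genes outside the list the median was 9 libraries, and 1.3% of genes reached 17, 3.78% reached 16, 13.2% reached 14 and 20.3% reached 13. The part of this list's movement in the hydroxylase results was not tested, and the labels give no oxygen level or culture density.

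**Figure D2:**
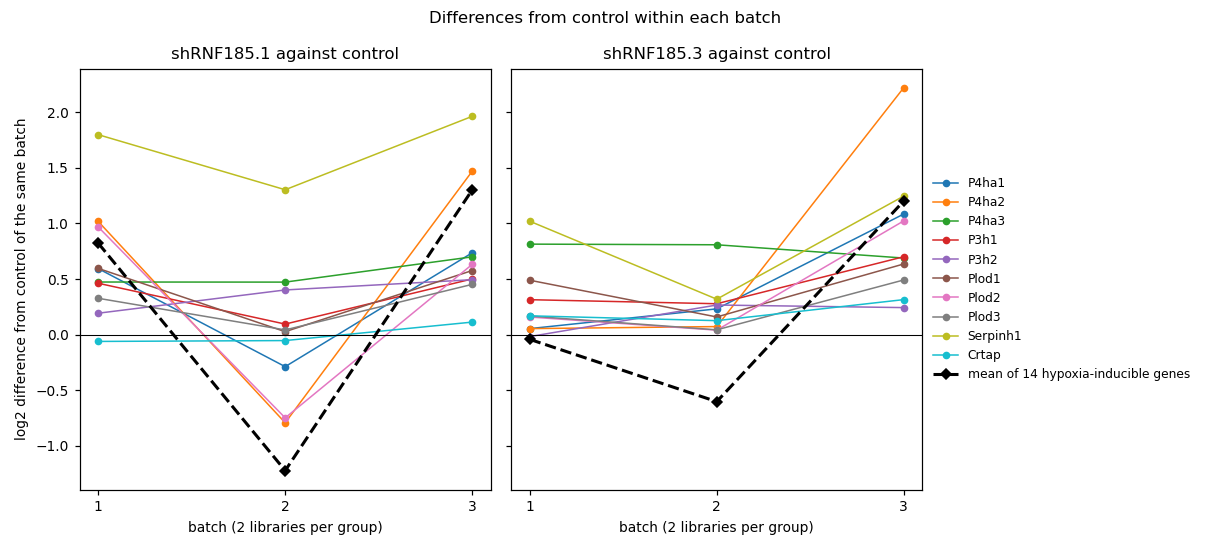
Log2 difference from the control libraries of the same batch (y axis) in batches 1, 2 and 3 (x axis, which has no order) for each gene, with shRNF185.1 on the left and shRNF185.3 on the right. Solid lines join the values of 1 gene. The dashed black line is the mean of the 14 hypoxia-inducible genes, at 0.82, -1.22 and 1.30 on the left. In batch 2 on the left P4ha2, Plod2 and P4ha1 also fell below 0, as did Crtap by little (-0.05, after -0.06 in batch 1).

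**Figure D3:**
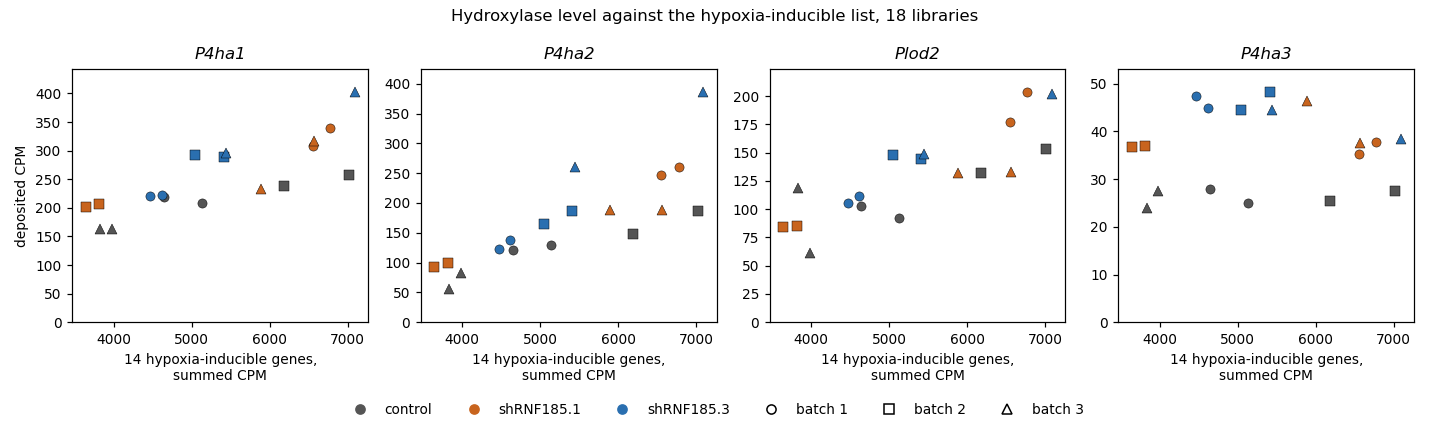
Deposited CPM of P4ha1, P4ha2, Plod2 and P4ha3 (y axes, from 0) against the summed CPM of the 14 hypoxia-inducible genes (x axis), 1 point per library, coloured by group and shaped by batch. P4ha2 lay on the same side of its group mean as the list in 17 of 18 libraries and P4ha1 and Plod2 in 14, and for P4ha3 all control points lie below all hairpin points whatever the level of the list.

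Of the prolyl 3-hydroxylase genes, P3h1 rose with both hairpins, P3h2 under shRNF185.1 and the partner Crtap with shRNF185.3, and the difference between the hairpins was called for P3h2 and Crtap. P3h1 (ENSMUSG00000028641, chr4:119232915-119248975, plus strand), which forms a complex with Crtap and the cyclophilin Ppib, had a lowest, median and highest level of 29.5, 34.2 and 38.2 CPM in control, 39.0, 43.6 and 48.0 CPM under shRNF185.1, and 41.6, 45.4 and 50.9 CPM under shRNF185.3. All 12 hairpin libraries lay above the highest control. P3h1 changed by 0.35 on the log2 scale (SE 0.07, edgeR adjusted p = 0.00101) under shRNF185.1 and 0.43 (SE 0.07, edgeR adjusted p = 0.000167) under shRNF185.3, and both calls held in all 13 alternatives. Within batches 1, 2 and 3 it was 0.46, 0.10 and 0.50 under shRNF185.1 and 0.31, 0.28 and 0.70 under shRNF185.3.

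P3h2 (ENSMUSG00000038168, chr16:25959288-26105784, minus strand), known for its action on basement membrane collagen, rose with shRNF185.1 only by the test. Its lowest, median and highest levels were 23.1, 26.9 and 28.6 CPM in control, 29.8, 34.5 and 35.9 CPM under shRNF185.1, and 26.9, 28.8 and 31.9 CPM under shRNF185.3. With shRNF185.1 no library overlapped control, and with shRNF185.3, 4 of 6 libraries lay above the highest control. P3h2 changed by 0.36 on the log2 scale (SE 0.06, edgeR adjusted p = 0.000315) under shRNF185.1 and 0.16 (95% interval 0.04 to 0.29, edgeR adjusted p = 0.0681) under shRNF185.3, and the second was called by DESeq2 (adjusted p = 0.0492), without batch 1 (0.0430) and without control replicate 2 (0.0459). The hairpins differed by a log2 value of -0.20 (SE 0.06, edgeR adjusted p = 0.0451), lower with shRNF185.3.

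Crtap (ENSMUSG00000032431, chr9:114375134-114390675, minus strand), the cartilage-associated protein that stabilises P3h1, had a lowest, median and highest level of 66.1, 77.5 and 86.7 CPM in control, 69.7, 76.9 and 83.6 CPM under shRNF185.1, and 79.2, 90.6 and 95.3 CPM under shRNF185.3. The shRNF185.1 libraries lay wholly inside the control range, and 3 of 6 shRNF185.3 libraries lay above it. In each group and batch, however, the library with the odd replicate number was the lower. Odd-numbered libraries stood at 66.1 to 74.3 CPM in control, 69.7 to 74.7 under shRNF185.1 and 79.2 to 86.5 under shRNF185.3. Even-numbered ones stood at 80.7 to 86.7, 79.1 to 83.6 and 94.8 to 95.3 CPM. Within odd or even numbers shRNF185.3 thus overlapped neither other group. The log2 fold change was -0.0042 (95% interval -0.14 to 0.13, edgeR adjusted p = 0.972) under shRNF185.1 and 0.20 (SE 0.07, edgeR adjusted p = 0.0322) under shRNF185.3, where the differences within batches were 0.17, 0.13 and 0.31. The shRNF185.3 call was kept in 7 of 13 alternatives and was lost, at 0.16 to 0.19 (adjusted p 0.0633 to 0.0760), when control replicate 1, 3 or 5 or shRNF185.3 replicate 2, 4 or 6 was left out. Between the hairpins Crtap differed by 0.21 on the log2 scale, the higher level being that of shRNF185.3 (SE 0.07, edgeR adjusted p = 0.0463), with differences of 0.23, 0.18 and 0.20 within the batches.

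Among the lysyl hydroxylases, Plod1 and Plod3 rose with both hairpins and Plod2 passed the test with neither. Plod1 (ENSMUSG00000019055, chr4:147909753-147936767, minus strand), which hydroxylates lysines of the helix, had a lowest, median and highest level of 45.2, 55.7 and 63.5 CPM in control, 64.1, 73.6 and 81.3 CPM under shRNF185.1, and 65.3, 75.9 and 79.8 CPM under shRNF185.3. Each hairpin library lay above each control library, and the lowest hairpin and the highest control libraries were both of batch 2. Plod1 changed by 0.39 on the log2 scale (SE 0.08, edgeR adjusted p = 0.00157) under shRNF185.1 and 0.42 (SE 0.08, edgeR adjusted p = 0.000972) under shRNF185.3. In batches 1, 2 and 3 it was 0.60, 0.03 and 0.58 under shRNF185.1 and 0.49, 0.16 and 0.64 under shRNF185.3, and the shRNF185.1 call was lost without batch 1 (0.29, edgeR adjusted p = 0.0891) and without batch 3 (0.31, 0.0504), and the shRNF185.3 call without batch 3 (0.32, 0.05001).

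Plod3 (ENSMUSG00000004846, chr5:136987019-136996648, plus strand), which also carries glycosyltransferase activity towards hydroxylysine, had a lowest, median and highest level of 112, 133 and 147 CPM in control, 147, 161 and 172 CPM under shRNF185.1, and 144, 156 and 174 CPM under shRNF185.3. All but 1 of the shRNF185.1 libraries and 4 of 6 shRNF185.3 libraries lay above the highest control. For Plod3 the fold change on the log2 scale was 0.27 (SE 0.06, edgeR adjusted p = 0.00371) under shRNF185.1 and 0.23 (SE 0.06, edgeR adjusted p = 0.0118) under shRNF185.3, the smallest changes among the genes called with both. Within batches 1, 2 and 3 it was 0.33, 0.04 and 0.45, and 0.17, 0.04 and 0.49, and without batch 3 the shRNF185.3 value was 0.10 (edgeR adjusted p = 0.267). Without batch 1 neither hairpin was called, at 0.24 (edgeR adjusted p = 0.103) and 0.26 (0.0783), and with the libraries of a group and batch summed the shRNF185.3 call was lost (0.0599).

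Plod2 (ENSMUSG00000032374, chr9:92542223-92608428, plus strand), whose product makes the telopeptide hydroxylysines of stable cross-links, had a lowest, median and highest level of 61.5, 111 and 153 CPM in control, 84.5, 132 and 204 CPM under shRNF185.1, and 105, 146 and 202 CPM under shRNF185.3. The groups overlapped over most of their ranges, with 2 shRNF185.1 and 1 shRNF185.3 library above the highest control. The log2 fold change was 0.30 (95% interval -0.15 to 0.76, edgeR adjusted p = 0.345) under shRNF185.1 and 0.38 (-0.07 to 0.84, edgeR adjusted p = 0.235) under shRNF185.3. With shRNF185.1 it was called without batch 2, at 0.79 (edgeR adjusted p = 0.0175), and its direction turned without batch 1, at -0.10.

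The chaperone Serpinh1 (ENSMUSG00000070436, chr7:99345376-99353239, minus strand) showed the largest change of the 10 genes with shRNF185.1, from the lowest level. Its lowest, median and highest levels were 3.36, 5.59 and 8.64 CPM in control, resting on 98 to 370 counts per library, 13.6, 17.1 and 24.2 CPM under shRNF185.1, and 6.97, 9.49 and 13.5 CPM under shRNF185.3. Every shRNF185.1 library lay above every control library, 5 of 6 shRNF185.3 libraries did, and every shRNF185.3 library lay below every shRNF185.1 library. In log2 terms Serpinh1 was up by 1.63 (SE 0.22, edgeR adjusted p = 1.67e-05) under shRNF185.1, 3.09-fold, and 0.80 (SE 0.22, edgeR adjusted p = 0.00992) under shRNF185.3, 1.74-fold. Within batches 1, 2 and 3 it was 1.80, 1.30 and 1.96 under shRNF185.1 and 1.02, 0.32 and 1.25 under shRNF185.3. The shRNF185.1 call held in all 13 alternatives, and the shRNF185.3 call was lost without batch 1 (0.74, edgeR adjusted p = 0.0905) and without batch 3 (0.59, 0.116).

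**Figure D4:**
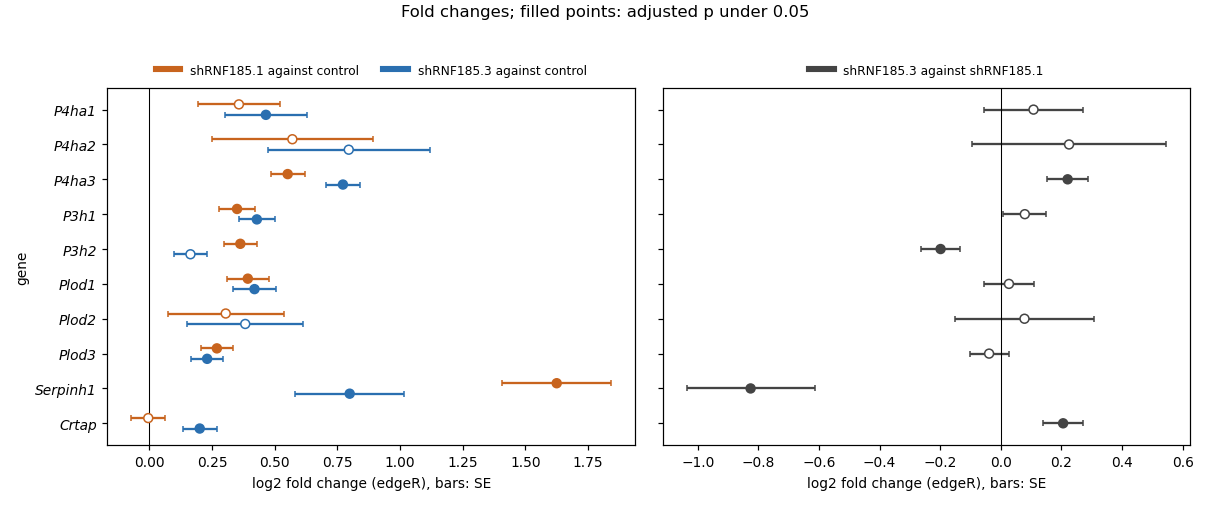
Log2 fold change from edgeR (x axes) of each gene (y axis) for each hairpin against control on the left and for shRNF185.3 against shRNF185.1 on the right. Points are estimates, bars are standard errors and filled points had an adjusted p under 0.05, with Serpinh1 at 1.63, 0.80 and -0.83 for the 3 comparisons.

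Compared with each other, the 2 hairpins differed in 4 of the 10 genes, against 14.7% of all genes called. P4ha3 (log2 difference 0.22, edgeR adjusted p = 0.0322) and Crtap (0.21, edgeR adjusted p = 0.0463) were higher with shRNF185.3, and P3h2 (-0.20, edgeR adjusted p = 0.0451) and Serpinh1 (-0.83, edgeR adjusted p = 0.0114) were lower. Within batches 1, 2 and 3 the difference of P4ha3 was 0.34, 0.34 and -0.01, so it was absent in batch 3, and that of P3h2 was -0.21, -0.14 and -0.25. Of all genes, 7.72% were called higher and 6.94% lower with shRNF185.3, and 52.7% of the called genes were higher, or 42.6% with the correction for GC content and length. Serpinh1 alone separated fully, every shRNF185.3 library lying lower, as was so for 3.79% of all genes, and its difference within batches 1, 2 and 3 was -0.78, -0.98 and -0.72. The differences of P4ha3, P3h2 and Crtap were small: P4ha3 was called in 6 of 13 alternatives, P3h2 in 4 and Crtap in 6, and Serpinh1 in 11. With 1 library left out, P4ha3 lost its call without shRNF185.1 replicate 1, 2, 3, 4 or 6 or shRNF185.3 replicate 1, 2, 3 or 4, at 0.20 to 0.22 (adjusted p 0.0515 to 0.0796). P3h2 lost it without shRNF185.1 replicate 1, 3, 5 or 6 or shRNF185.3 replicate 1, 2, 3 or 5, at -0.20 to -0.18 (adjusted p 0.0740 to 0.103). Crtap lost it without control replicate 1, 3 or 6, any of shRNF185.1 replicates 1 to 5 or shRNF185.3 replicate 2, 4, 5 or 6, at 0.18 to 0.22 (adjusted p 0.0509 to 0.108). With the replicate number as a block, 2 of the 10 genes were called, and P4ha3 (adjusted p = 0.0567) and P3h2 (0.0967) were not. For the other 6 genes the intervals of the difference were -0.21 to 0.43 for P4ha1, -0.40 to 0.85 for P4ha2, -0.06 to 0.22 for P3h1, -0.14 to 0.19 for Plod1, -0.37 to 0.53 for Plod2 and -0.17 to 0.09 for Plod3.

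The 10 genes fell into wide and narrow groups by spread between libraries of 1 group. The pooled within-group SD of the log2 level was 0.63 for P4ha2, 0.45 for Plod2, 0.41 for Serpinh1 and 0.31 for P4ha1, larger than in 96.2%, 90.6%, 88.2% and 79.2% of all genes. For the other 6 it lay between 0.11 and 0.15, near or below the middle of all genes. In the wide group the highest control library exceeded the lowest 3.34 times for P4ha2, 2.58 times for Serpinh1, 2.49 times for Plod2 and 1.59 times for P4ha1. By direction within batches, 6 of 10 genes were higher than control in every batch with shRNF185.1 and 9 of 10 under shRNF185.3, against 19.7% and 23.1% of all genes. P4ha1, P4ha2, Plod2 and Crtap were the mixed genes with shRNF185.1, and P3h2, at -0.02 in batch 1, was the one with shRNF185.3.

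For each gene the single gene with the most similar profile of log2 CPM over the 18 libraries was found, as a description of these libraries, which share batches and groups. P4ha1 and P4ha2 had the same nearest gene, Ndrg2, with Pearson r of 0.95 and 0.99. Serpinh1 was nearest to the matrix gene Postn (r = 0.95), Plod1 to the collagen gene Col16a1 (0.97) and P4ha3 to the semaphorin receptor gene Plxnd1 (0.96). The nearest genes of the rest were Plscr3 for P3h1 (0.96), Extl2 for P3h2 (0.88), Abhd18 for Plod2 (0.98), Rbms2 for Plod3 (0.96) and Psmg4 for Crtap (0.95).

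Other genes that handle collagen in the endoplasmic reticulum and at its exit moved in both directions. Of 16 listed genes, 14 were tested, Fkbp10 and Colgalt2 being below the filter. With shRNF185.1, 5 of the 14 rose and 2 fell, beside 14.6% and 14.3% of all genes. With shRNF185.3, 5 of the 14 rose and 1 fell, beside 14.2% and 13.1% of all genes. Those that rose with both were P3h3, a relative of P3h1 (log2 0.62 and 0.67), Mia3, the receptor that loads procollagen for export (0.30 and 0.34), and Sec23a and Sec24d, coat proteins of the export vesicles (0.61 and 0.68, 0.21 and 0.24). The zinc transporter gene Slc39a13 rose with shRNF185.1 (0.33) and the collagen transcription factor gene Creb3l1 under shRNF185.3 (0.79). Klhl12, an adaptor of the ligase that enlarges those vesicles, fell with both (-0.13 and -0.20), and P3h4, a partner in lysyl hydroxylation, fell with shRNF185.1 (-0.87). P4hb and Ppib, which form complexes with the alpha subunits and with P3h1 and Crtap, passed in neither comparison: P4hb was at 0.06 (edgeR adjusted p = 0.763) and 0.11 (0.560), and Ppib at -0.16 (0.0750) and 0.01 (0.930). The list medians were 0.14 and 0.14, and between the hairpins none was called in edgeR, with 2 at an unadjusted p under 0.05 and 1 each by DESeq2, limma-voom and limma on CPM. The calls with shRNF185.1 came down from 7 to 2 without batch 1, and those with shRNF185.3 from 6 to 3 without batch 3.

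The substrates mostly rose. Of 14 collagen chain genes, all tested, 11 rose and 2 fell with shRNF185.1, beside 14.6% and 14.3% of all genes. With shRNF185.3, 13 rose and none fell, beside 14.2% and 13.1% of all genes, and the medians of the chains were 0.70 and 0.97. The summed level of the 14 chains was 4944 ± 558 CPM in control, 7225 ± 892 CPM under shRNF185.1 and 8979 ± 1095 CPM under shRNF185.3 (SD, n = 6 each). Col3a1 rose by 1.11 and 1.60 and Col1a1 by 1.29 and 2.19 on the log2 scale, above each of the 10 genes except Serpinh1 under shRNF185.1. Col1a2 (-0.56) and Col2a1 (-1.07) were the chains that fell with shRNF185.1, both of which rose with shRNF185.3 (0.55 and 1.59). Between the hairpins 5 chains were higher (Col1a1, Col1a2, Col2a1, Col6a2 and Col6a3) and 1 lower (Col5a3) under shRNF185.3, beside 7.72% and 6.94% of all genes. The mean summed chain level was higher, and the Serpinh1 level lower, with shRNF185.3 than with shRNF185.1. This list was chosen with the study's interest in collagen known and is no independent evidence of a direction.

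Since Serpinh1 is a heat shock gene, 10 other heat shock genes were read beside it. With shRNF185.1, 3 of 10 rose, Hspa1a (0.59, uncertain because Hspa1b is a near-identical copy), Hspb1 (0.70) and Bag3 (0.24), and with shRNF185.3, 2 rose, Hspb1 (0.80) and Bag3 (0.21). The 3 and 2 of 10 that rose stand beside 14.6% and 14.2% of all genes called higher. None fell, beside 14.3% and 13.1% of all genes called lower. In either direction 28.9% and 27.3% of all genes were called. The list medians were -0.06 and -0.09. Between the hairpins none was called in edgeR, DESeq2 or limma-voom, with 2 at an unadjusted p under 0.05. Serpinh1, at 1.63 and 0.80, thus lay above the list's highest called value with shRNF185.1 and level with Hspb1 under shRNF185.3.

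**Figure D5:**
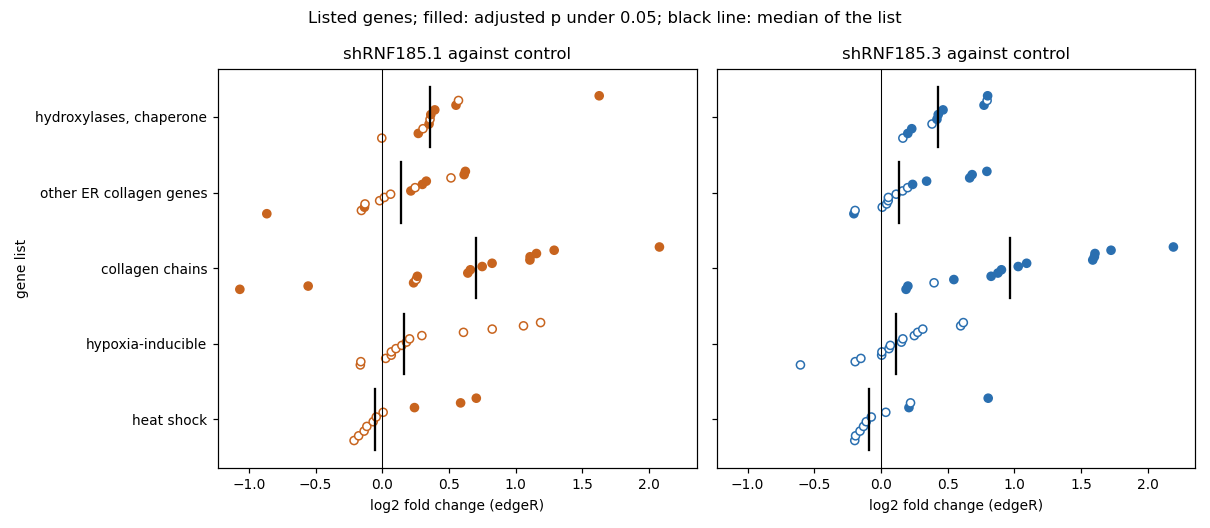
Log2 fold change from edgeR (x axes) of the genes of 5 lists (y axis) under shRNF185.1 on the left and shRNF185.3 on the right. Each point is a gene, filled where the adjusted p was under 0.05, and the black line is the median of the list, at 0.36 and 0.42 for the hydroxylases and chaperone, 0.14 and 0.14 for the other endoplasmic reticulum genes and 0.70 and 0.97 for the collagen chains.

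Read in the direction of the transcripts, little sequence was shared with other genes, a comparison that does not cover the opposite strand. Of all 75-base windows of the annotated transcripts, the length of the reads, only 0.172% of those of Plod1 occurred in another gene (Wdr38), and none did for the other 9 genes. On the opposite strand P3h2 shares 1055 exon bases with Gm4524, Plod3 shares 529 with Znhit1, and Plod2 shares 346 with Gm38391. Gm4524 stood at 3.47, 4.64 and 3.79 CPM and Gm38391 at 1.83, 2.28 and 2.17 CPM in control, shRNF185.1 and shRNF185.3. Znhit1 stood at 44.1, 43.3 and 46.5 CPM and was called in neither comparison. Nor was Gm4524, at a log2 fold change of 0.42 (edgeR adjusted p = 0.0607) and 0.14 (0.580), beside 0.36 and 0.16 for P3h2. Gm38391 was not called either, at 0.31 (0.202) and 0.25 (0.328), beside 0.30 and 0.38 for Plod2. The library kit marks strand, but whether the counting used it is not given in the sources used here, so reads of these 3 pairs are uncertain.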

How the data were processed

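Per the submitters' processing notes, the tools were cutadapt 2.3, STAR 2.7.0d and RSEM 1.3.1 with genome build mm10, without roles or order, and the annotation is not given in the sources used here. The authors deposited estimated counts per gene and a CPM signal table of 15386 genes. Per the labels both tables carry ComBat-Seq, a method that removes batch differences from counts, in their names, and its settings are not given. Of the deposited count values, 0.466% were not whole and all were rounded before testing, although whole counts had been planned for. The deposited CPM sums were 969986 to 1026394 per library, and these values are used as levels.

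Gene identifiers were matched to GENCODE M21 on GRCm38 (99.1% had a symbol), and exon lengths are all annotated exons of a gene merged. Counts of the 18 libraries were fitted together with edgeR 4.0.16 in R 4.3.3 (TMM scaling, filterByExpr with a minimum count of 10, a mean per group, quasi-likelihood test, Benjamini-Hochberg adjustment over all 14309 genes tested, calls at 0.05). Values within batches are differences of mean log2 CPM (prior count 2). Alternatives used DESeq2 1.42.0, limma 3.58.1 (limma-voom, and limma on log2 CPM plus 1), another scaling or filter, batch terms, a GC and length offset, summed libraries, and libraries or batches left out. The fits were tested on simulated data. The 10 genes and the other lists were chosen with earlier results of these data known. All 10 genes, the targeted gene, the called genes of each list and the single most similar gene of each of the 10 are named. No replicate libraries agreed within sampling noise, with a chi-square per gene of 7.64 to 84.4 over 45 pairs within groups.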

Additional observations from a re-analysis of the deposited data

Results flagged for a closer look

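P4ha3 held a library far from the others of its group with each hairpin: shRNF185.1 replicate 5 stood at a log2 CPM of 5.54, above the next library at 5.24, and shRNF185.3 replicate 6 at 5.27, below the next at 5.48. Of the 30 groups of 6 libraries examined for the 10 genes, chance alone would mark about 1.5. Both libraries are of batch 3, and P4ha3 was called against control without either of them.

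The effect differed between the hairpins by the test for 4 genes. The log2 difference of shRNF185.3 from shRNF185.1 was 0.22 for P4ha3, -0.20 for P3h2, -0.83 for Serpinh1 and 0.21 for Crtap (edgeR adjusted p 0.0322, 0.0451, 0.0114 and 0.0463). Rnf185 itself was equally low with both hairpins, with a log2 fold change of -2.63 each.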

How the results depend on the processing

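For the 10 genes, alternatives other than leaving out 1 library kept direction and side of the threshold in 326 comparisons, ended a call in 46, added one in 6 and turned the direction in 12. With 1 library left out these numbers were 481, 43, 3 and 13. P4ha3 and P3h1 under both hairpins, and P3h2 and Serpinh1 under shRNF185.1, were called in every one of these fits.

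Counts of calls moved with the batches left out, the tool and the offset, and the cause was not tested. Over all genes, calls were 2207 without batch 1 under shRNF185.1 (from 4141), 2120 without batch 1 and 2501 without batch 3 under shRNF185.3 (from 3906), and 753 without batch 1 and 1208 without batch 2 between hairpins (from 2098). Of the 10 genes, the 7 called under shRNF185.3 became 2 without batch 3. The 4 called between hairpins became 0 without batch 1, 0 without batch 2, 2 without batch 3 or with summed libraries, 1 with a minimum of 1 count, 1 with a batch covariate, and 1 to 4 with 1 library left out. Other collagen genes of the endoplasmic reticulum called under shRNF185.1 (7) became 2 without batch 1 and 4 without batch 3 or with summed libraries, and under shRNF185.3 (6) 3 without batch 3. Between hairpins (0) they were 1 with DESeq2, limma-voom, limma on CPM or the GC and length offset, and 0 to 1 with 1 library left out. Collagen chains called between hairpins (6) became 3 with a batch covariate, 3 without batch 2 and 3 to 8 with 1 library left out. Hypoxia-inducible genes (0 in each comparison) became 12 without batch 2 under shRNF185.1, 1 with limma-voom, 1 with limma on CPM and 0 to 2 with 1 library left out, 5 without batch 2 under shRNF185.3, and between hairpins 2 without batch 2, 1 without batch 3 and 0 to 1 with 1 library left out. Heat shock genes (3, 2 and 0) became 6 without batch 2 under shRNF185.1, 4 with the GC and length offset and 2 to 4 with 1 library left out under shRNF185.3, and between hairpins 2 with that offset, 1 without batch 1 and 0 to 1 with 1 library left out.

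The direction turned for values that were not called. For Plod2 under shRNF185.1 it was -0.10 without batch 1. Crtap under shRNF185.1 was 0.019 with library size alone, 0.00045 with limma on CPM, 0.023 without batch 1, 0.023 without batch 2 and -0.046 to 0.031 with 1 library left out. Between hairpins P4ha1 was -0.070 without batch 2, -0.037 without batch 3 and -0.013 to 0.19 with 1 library left out. P4ha2 was -0.19 without batch 3 and -0.042 to 0.36, Plod1 -0.028 without batch 2 and -0.0066 to 0.062, and Plod2 -0.19 without batch 2, -0.11 without batch 3 and -0.045 to 0.23 with 1 library left out. Plod3 was 0.022 without batch 1.

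The replicate numbers were not taken to pair the libraries in the main fit. Over 18 same-numbered pairs of different groups the mean correlation of deviations was -0.0144, and 2 of 18 libraries were closest to a library of their own number. Pairs of different groups in the same batch with other numbers had a mean of -0.434, and pairs in other batches 0.111. Within a batch, libraries were thus more alike when they shared the number, so a pairing within batches was not excluded. With the replicate number as a block, 2 of the 10 genes were called between hairpins (4 without it), 6 under each hairpin against control, and 1 other collagen gene of the endoplasmic reticulum between hairpins. The block together with the GC and length offset gave 2 of the 10 genes, 2 other collagen genes, 10 collagen chains and 1 heat shock gene between hairpins, and 4 heat shock genes under shRNF185.3. Serpinh1 rested on the fewest counts of the 10 genes, down to 98 in a library.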
